A study of Homo sapiens with 9 samples.

Results

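A set of 44 genes for the charging of tRNAs, the ATF4 stress response, amino acid uptake and protein folding in the endoplasmic reticulum (ER) was followed in HAL-01 cells. HAL-01 is a human leukemia line of B cell precursors (B-ALL) with the t(17;19) translocation, which makes the fusion transcription factor TCF3::HLF. The members were taken by their GENCODE release 44 symbols and split into 19 cytosolic tRNA synthetase genes, 10 genes of ATF4 and its effectors, 7 amino acid transporter genes and 8 ER genes. They are 44 of the 62700 genes in the deposited table, and all 44 were among the 14436 genes that passed the filter on low counts. All cells stably expressed Cas9 together with GFP and were collected on day 13. Cells that had received sgRNA_96 or sgRNA_97, guides against the TCF3::HLF-bound enhancer of MEF2C, carry the genotype Cas9GFP, MEF2C Enhancer KO in the labels, and the control cells had received SCR1. Each guide had 3 libraries, numbered 1, 3 and 4, so that 6 KO libraries stood against 3 SCR1 libraries. Whether the replicates came from separate cultures was not given in the sources used here, so the p-values measure the spread between these libraries, which may be technical. All cells come from a single line, and the share of cells that carried an edit was not analysed here.

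Aminoacyl-tRNA synthetases join each amino acid to its tRNA and so supply translation. When amino acids run short, or misfolded proteins gather in the ER, kinases phosphorylate the initiation factor eIF2. General translation then slows while that of ATF4, a transcription factor, rises, and ATF4 drives genes for synthetases, amino acid transporters and amino acid synthesis. The unfolded protein response is the matching program of the ER. Its sensor IRE1 cuts a short intron out of XBP1 mRNA, and the spliced XBP1 protein, together with ATF6, switches on chaperone genes. In the B lineage XBP1 is best known for its role in antibody-secreting plasma cells.

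Total estimated counts lay between 15212462 and 29777361 per library, with SCR1 replicate 1 the deepest, and mitochondrial genes took 5.97 to 7.01% of them. All 10 markers of B-ALL cells were at 1 CPM or more in every library, where CPM are counts per 1e+06 counts of the scaled library. Their summed level was 4797 to 4979 CPM in SCR1 and 5276 to 5553 CPM in KO. DNTT and RAG1 were the 2 of these past the threshold (log2 fold change 0.26 and 0.87), and 5 of the 10 were below 0. The 5 plasma cell markers summed to 120.02 to 126 CPM in SCR1 and 94.8 to 108 CPM in KO, with SDC1 (-0.42) and IRF4 (-0.28) lower, PRDM1 at 0.37 (adjusted p 0.151), and JCHAIN and TNFRSF17 under 1 CPM. The 5 erythroid markers were at 0 counts, 4 of the 5 T cell markers were too, and the 5 myeloid markers summed to 18.7 to 21.5 CPM in SCR1 and 19.4 to 23.98 CPM in KO. Within the last, MPO rose by 1.08 on the log2 scale from 2.75 CPM while CSF1R was at -0.21 (adjusted p 0.124) and LYZ, CD14 and ELANE were under 1 CPM. The 5 stromal markers summed to 19.6 to 24.1 CPM in SCR1 and 17.4 to 20.9 CPM in KO, nearly all of it PDGFRB, with COL1A2, DCN and LUM at 0. The part of these shifts in the results on the 44 genes was not tested.

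MEF2C, the gene of the targeted enhancer, was at 559.6, 559 and 536 CPM in SCR1 replicates 1, 3 and 4, at 495, 498 and 510.1 CPM with sgRNA_96 and at 553, 505 and 495 CPM with sgRNA_97. Its log2 fold change was -0.12 (SE 0.04, adjusted p 0.0620), which is not past the threshold of 0.05 (edgeR, quasi-likelihood, with p adjusted after Benjamini and Hochberg, as throughout). The KO libraries other than sgRNA_97 replicate 1 lay below SCR1, and without it the adjusted p was 0.0144 (range over the alternatives 0.00228 to 0.184). MEF2C was also past the threshold in DESeq2, the study's tool, and with a GC trend offset (adjusted p 0.00228 to 0.0270). In all it passed in 3 of the 18 alternatives. The paper reports MEF2C as down-regulated in its RNA-seq, and lower MEF2C mRNA and protein by RT-qPCR and Western blot.

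Among the 44 genes sgRNA_97 replicate 3 stood apart from the other KO libraries. It was the highest of the 6 KO libraries for 23 of the 44, among them 8 of the 10 ATF4 genes and 6 of the 7 transporters, and it was the lowest for 6 of the 8 ER genes. In it 22 of the 44 genes lay below their SCR1 mean, against 35 to 40 in each of the other KO libraries. Its depth of 18977679 counts and its mitochondrial share of 6.70% were within the range of the other libraries. sgRNA_96 replicate 1 was the lowest KO library for 15 of the 44, among them 5 of the 7 transporters and 7 of the 19 synthetases. Over all members the count of calls in KO was 13 with all libraries and 13 without sgRNA_97 replicate 3, but the genes differed. Without sgRNA_97 replicate 3 FARSA, KARS1, LARS1 and HERPUD1 lost the call, and ATF4, SESN2, ATF5 and SLC7A1 gained it. That fit called 2493 of 14688 genes. Without sgRNA_96 replicate 1 the count was 17, where 3516 of 14751 genes were called. Both libraries were singled out by their values in these same genes. Calls gained or lost without either of them show dependence on that library, and those gained are no separate support.

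Sequence elements that tie these genes to ATF4 and to the unfolded protein response were looked for in RefSeq promoters (GRCh38.p14), each from 250 bases before to 50 bases after a gene start. A promoter was matched by symbol for 40 of the 44 members (all but LARS1, SLC7A11, VARS1 and YARS1). The C/EBP-ATF response element (CARE), the site ATF4 binds with its partners, was searched as TGATGNAA on both strands and was found for 15 of the 40 members. Of all 35116 promoters, 3.62% held it, and 4.46% of the 27305 genes with a promoter did so in at least 1 of theirs. The 40 members had 61 promoters and were listed as genes of these pathways, so a higher share is no separate support. Those with the element were AARS1, CARS1, GARS1, IARS1, MARS1, NARS1, TARS1, CHAC1, ASNS, CEBPG, SLC3A2, SLC7A1, SLC1A5, SLC1A4 and HERPUD1. Of the 15 members with it 4 were called in KO, where 29.5% of the 44 members and 20.7% of all genes tested were. The windows below are shown for the 4 members that hold it and changed in KO, and for ASNS and CHAC1, which hold it and were not past the threshold. They run in the direction of the gene (minus strand for SLC1A5 and ASNS, plus strand for the others), with the element in capitals (read as its reverse complement where it lies on the other strand).
SLC1A4 chr2:64989377-64989414: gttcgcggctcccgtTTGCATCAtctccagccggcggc
SLC1A5 chr19:46784889-46784926: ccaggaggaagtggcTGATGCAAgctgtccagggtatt
SLC3A2 chr11:62881721-62881748: aatgtgcaggactccTTACATCAgctcc
HERPUD1 chr16:56931951-56931988: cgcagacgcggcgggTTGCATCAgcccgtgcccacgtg
ASNS chr7:97872454-97872491: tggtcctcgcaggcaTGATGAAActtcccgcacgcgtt
CHAC1 chr15:40953247-40953284: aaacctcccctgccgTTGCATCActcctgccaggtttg

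The ER stress response element (ERSE), bound by ATF6 and spliced XBP1 together with NF-Y, was searched as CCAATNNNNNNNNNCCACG on both strands. It was found for XBP1, HSPA5, HSP90B1 and CALR, while 27 of the 35116 promoters, or 0.0769%, held it, and 0.0916% of all genes with a promoter. XBP1 and HSPA5, both on the minus strand, are shown because the first rose in KO and the second, with the same element, had a fold change below 0.
XBP1 chr22:28800588-28800636: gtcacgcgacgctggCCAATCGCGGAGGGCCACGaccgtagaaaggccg
HSPA5 chr9:125241376-125241424: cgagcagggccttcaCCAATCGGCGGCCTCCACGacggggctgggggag
A match of letters is a description of the promoter and not a measured binding site. As for CARE, the members were listed as genes of the pathway, so a higher share is no separate support.

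Whether these genes moved when the MEF2C enhancer was targeted was read first from both guides together, 6 KO against 3 SCR1. Of the 44 members, 13 were past the threshold, 11 lower and 2 higher in KO, where 20.7% of all genes tested were called, 10.6% lower and 10.1% higher. The 11 that fell were the synthetases FARSA, KARS1 and WARS1, the ATF4 effectors TRIB3 and PPP1R15A, the transporters SLC7A5, SLC3A2, SLC1A5 and SLC1A4, and the ER genes HERPUD1 and SDF2L1. The 2 that rose were LARS1 and XBP1. All changes were small, from -0.41 for SDF2L1 to 0.29 for XBP1 on the log2 scale. In bulk RNA, fewer cells with a transcript and less of it per cell cannot be told apart.

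Beyond the calls, 39 of the 44 fold changes were below 0, with a median log2 fold change of -0.13. Over all genes tested 49.5% were below 0 and the median was 0.0028. The KO values lay below every SCR1 value for 8 members (WARS1, TRIB3, PPP1R15A, SLC7A5, SLC1A5, HSPA5, HERPUD1 and SDF2L1), and above every SCR1 value for XBP1, where 10.2% and 10.1% of all genes did so. The count of calls moved with the controls. It was 4 without SCR1 replicate 1 and 7 without SCR1 replicate 4. With a gene length offset 7 were left, without FARSA, LARS1, SLC3A2, SLC1A5, HERPUD1 and SDF2L1, and on TPM 5, without PPP1R15A and SLC1A4 as well. Of the 13, WARS1, TRIB3, SLC7A5 and XBP1 were called in each of the 18 alternative settings run.

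**Figure D1:**
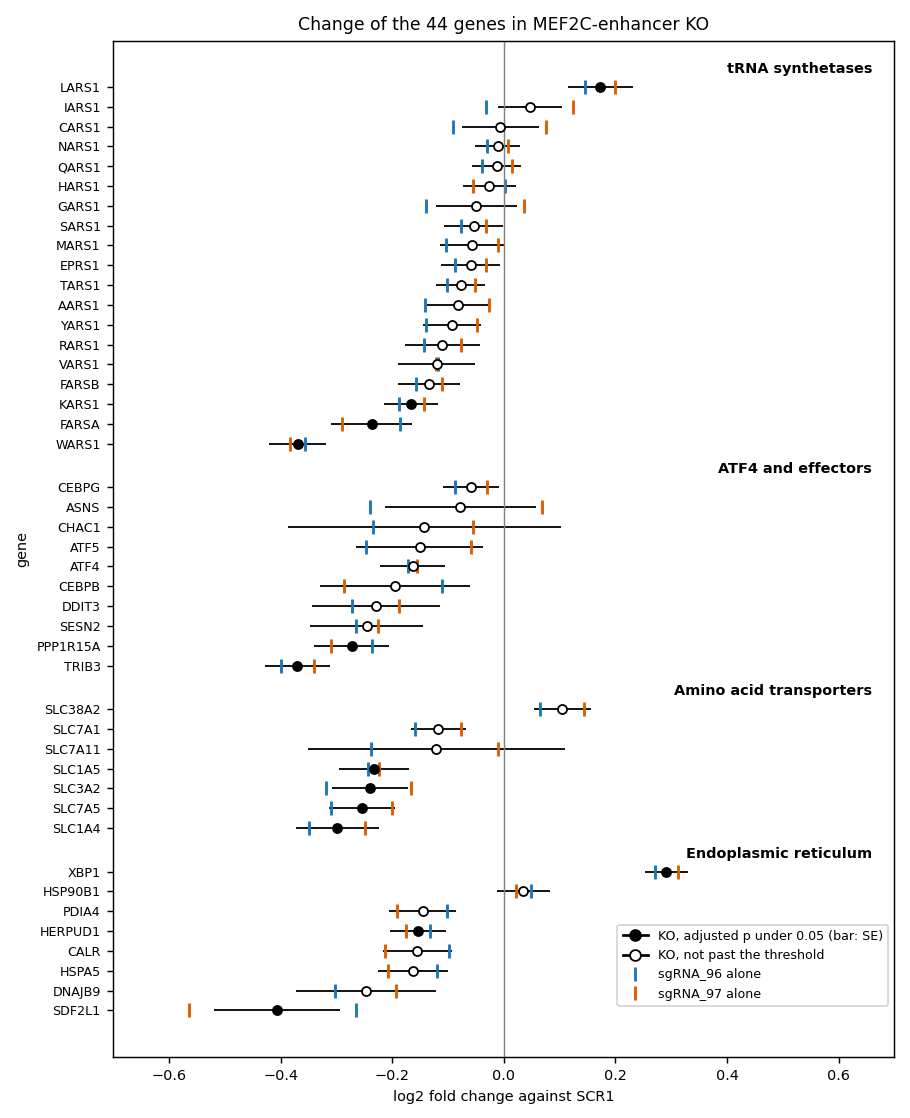
The x axis gives the log2 fold change against SCR1 for each of the 44 genes (y axis), grouped by class; black circles are the 6 KO libraries together with the standard error as a bar, filled where the adjusted p was under 0.05, and the coloured ticks are each guide alone. Of the circles 39 lie left of 0, and 13 are filled, 11 of them on the left.

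**Figure D2:**
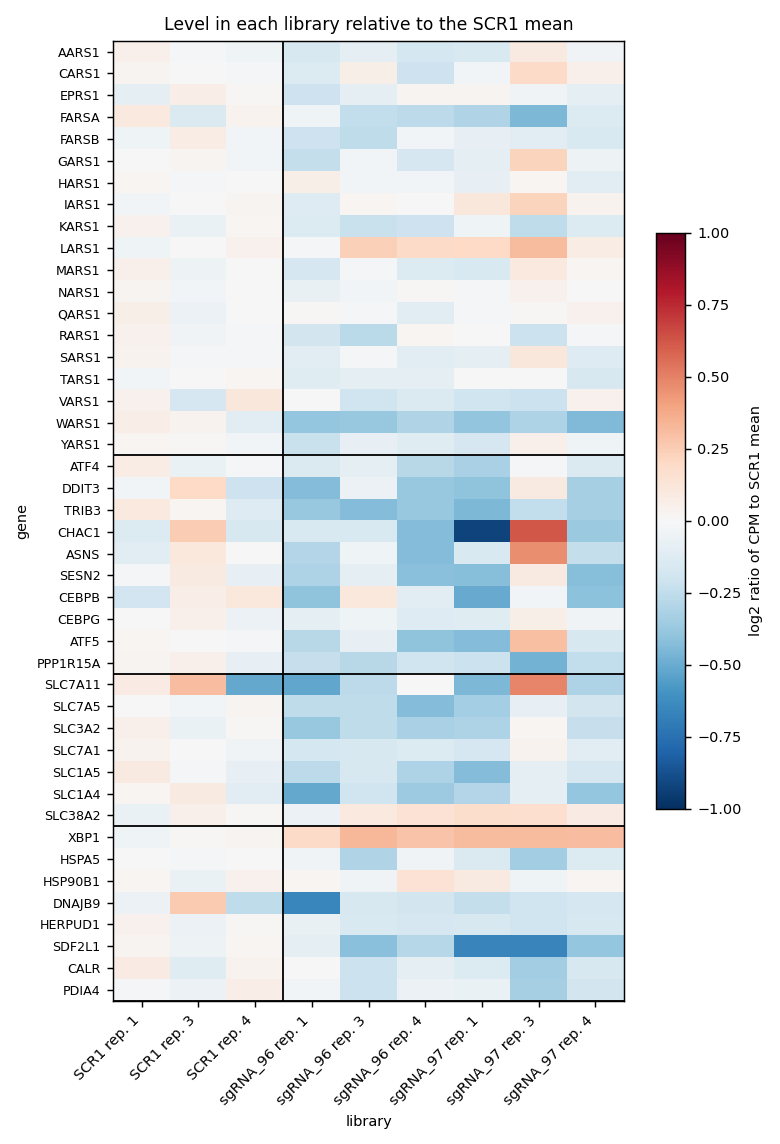
Rows are the 44 genes, columns the 9 libraries, and colour is the log2 ratio of the CPM to the mean of the SCR1 libraries. In the column of sgRNA_97 replicate 3, 22 of the 44 genes lie below the SCR1 mean (blue), while in each of the other KO columns 35 to 40 do. The 22 are 8 of the 19 synthetases, 4 of the 10 ATF4 genes, 3 of the 7 transporters and 7 of the 8 ER genes.

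Of the 19 synthetase genes 3 fell, 1 rose and 15 were not past the threshold, with a median log2 fold change of -0.06 and 17 values below 0. The called share of 21.1% was close to the 20.7% of all genes, and 1 call was left without sgRNA_97 replicate 3, sgRNA_96 replicate 3 or either of SCR1 replicates 1 and 4. WARS1, which charges tRNA with tryptophan, moved most. It was at 93.4, 91.1 and 82.5 CPM in SCR1 replicates 1, 3 and 4, at 68.0, 68.5 and 72.2 CPM with sgRNA_96 and at 67.6, 71.7 and 65.4 CPM with sgRNA_97. Every KO library was below every SCR1 library, and the log2 fold change was -0.37 (SE 0.05, adjusted p 0.000131). Over the 18 alternatives it ranged from -0.47 to -0.33, with adjusted p from 2.94e-09 to 0.0104. The WARS1 locus (ENSG00000140105.18, chr14:100333790-100376805, minus strand, hg38) shares exon sequence with WDR25 on the other strand. Of the 44 members 18 overlap an exon on the other strand in this way, KARS1, FARSA, LARS1, SLC7A5 and SLC1A5 among those called, and the use of strand in counting is not given in the sources used here.

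KARS1, the lysyl-tRNA synthetase of both cytosol and mitochondria, was at 229.9, 213 and 226 CPM in SCR1 and from 187 to 216 CPM, with a median of 198, in the KO libraries. The highest KO library exceeded the lowest SCR1 library, and the log2 fold change was -0.17 (SE 0.05, adjusted p 0.0233). The call was lost without any 1 of sgRNA_96 replicate 3, sgRNA_97 replicate 3, SCR1 replicate 1 or SCR1 replicate 4 (adjusted p 0.0514 to 0.122).

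FARSA, the catalytic subunit for phenylalanine, was at 110.3, 93.0 and 105 CPM in SCR1 and from 75.5 to 99.9 CPM, with a median of 86.2, in the KO libraries. Its groups overlapped as well, and its log2 fold change of -0.24 (SE 0.07, adjusted p 0.0305) was not called when any 1 of 6 libraries was left out, which were sgRNA_96 replicates 3 and 4, sgRNA_97 replicates 1 and 3, and SCR1 replicates 1 and 4 (adjusted p 0.0517 to 0.182). FARSB, the partner subunit, had a log2 fold change of -0.13 (SE 0.06, adjusted p 0.0988).

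LARS1, the leucine enzyme that also takes part in amino acid sensing, went the other way. It was at 301, 312 and 319.7 CPM in SCR1 and from 309 to 387 CPM, with a median of 356, in the KO libraries. Only sgRNA_96 replicate 1 fell within the SCR1 range, and the log2 fold change was 0.17 (SE 0.06, adjusted p 0.0457). Leaving out any 1 of 7 libraries, all but sgRNA_96 replicate 1 and sgRNA_97 replicate 4, ended the call (adjusted p 0.0730 to 0.194), and so did the gene length offset, the GC trend offset and the test on TPM (adjusted p 0.0702 to 0.152).

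The other 15 synthetase genes had log2 fold changes from -0.13 for FARSB to 0.05 for IARS1, none past the threshold. AARS1, for alanine, was at 287 ± 9.06 CPM in SCR1 (SD, n = 3) and 271 ± 19.7 CPM in KO (SD, n = 6). EPRS1, which charges both glutamate and proline, was at 225 ± 12.2 CPM in SCR1 (SD, n = 3) and 216 ± 13.2 CPM in KO (SD, n = 6). For CARS1, GARS1, HARS1, IARS1, MARS1, NARS1, QARS1 and SARS1 the mean KO level was within 0.06 of SCR1 on the log2 scale, and the sign of CARS1, IARS1, MARS1, NARS1 and QARS1 changed with the setting. RARS1, TARS1, VARS1 and YARS1 had values of -0.11, -0.08, -0.12 and -0.09 (adjusted p 0.228 to 0.268). The 7 synthetases with a CARE in the promoter, AARS1, CARS1, GARS1, IARS1, MARS1, NARS1 and TARS1, were all among these 15, while the promoters of FARSA, KARS1 and WARS1 held no such letters.

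All 10 genes of the ATF4 class had a log2 fold change below 0, with a median of -0.18, where 49.5% of all genes were below 0. TRIB3 and PPP1R15A fell past the threshold, and this share of 2 in 10 was close to that of all genes called (20.7%). Without sgRNA_97 replicate 3, the highest KO library for 8 of these genes, 5 of the 10 were called, where 2493 of 14688 genes were. Leaving that library out lowers the KO mean of those 8, so the added calls are no separate support. ATF4 itself was at 693, 628 and 649 CPM in SCR1, at 594, 614 and 542 CPM with sgRNA_96 and at 525, 649.8 and 595 CPM with sgRNA_97. sgRNA_97 replicate 3 lay within the SCR1 range and the other KO libraries below it. The log2 fold change was -0.16 (SE 0.06, adjusted p 0.0564), and without sgRNA_97 replicate 3 it was -0.19 with an adjusted p of 0.0221. ATF4 was also past the threshold in DESeq2 (adjusted p 0.0302), with no filter, with a stricter filter and with a GC trend offset, over a range from 0.00596 to 0.260 in all 18 alternatives. ATF4 is controlled mainly in translation, which these mRNA levels do not measure.

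TRIB3, a pseudokinase that ATF4 induces and that restrains it in turn, was at 78.5, 74.5 and 67.2 CPM in SCR1 replicates 1, 3 and 4, at 56.4, 54.2 and 56.4 CPM with sgRNA_96 and at 53.6, 62.0 and 58.1 CPM with sgRNA_97. The groups did not overlap. The log2 fold change was -0.37 (SE 0.06, adjusted p 0.000402), and its adjusted p lay between 3.93e-08 and 0.0130 in the 18 alternatives. PPP1R15A (GADD34), which brings a phosphatase to eIF2 and ends the stress signal, was at 36.5, 37.0 and 33.7 CPM in SCR1 and from 25.8 to 31.1 CPM, with a median of 30.3, in the KO libraries. All KO values were below SCR1, with a log2 fold change of -0.27 (SE 0.07, adjusted p 0.00961). Without SCR1 replicate 1 its adjusted p was 0.0570 (range over the alternatives 0.00278 to 0.0747).

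DDIT3 (CHOP), the ATF4 partner linked to cell death, was at 26.4, 30.9 and 23.3 CPM in SCR1 and from 19.9 to 28.6 CPM, with a median of 21.0, in the KO libraries. The groups overlapped, and the log2 fold change was -0.23 (SE 0.11, adjusted p 0.173). Exons of DDIT3 overlap those of MARS1 and MBD6 on the other strand and of ENSG00000285133 on its own, so its level is uncertain. Its adjusted p was 0.0470 with no filter on low counts and ranged from 0.0276 to 0.532 over the 18 alternatives. SESN2, an inhibitor of mTORC1, and ATF5, a factor related to ATF4, had log2 fold changes of -0.25 (SE 0.10, adjusted p 0.0988) and -0.15 (SE 0.11, adjusted p 0.384). Without sgRNA_97 replicate 3 they were -0.32 and -0.26 (adjusted p 0.0135 (range over the alternatives 0.00902 to 0.260) and 0.0200 (range over the alternatives 0.0200 to 0.567)).

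ASNS, asparagine synthetase and a standard readout of ATF4, was at 64.7, 75.3 and 70.4 CPM in SCR1, at 57.2, 68.2 and 52.0 CPM with sgRNA_96 and at 63.1, 96.7 and 59.6 CPM with sgRNA_97. sgRNA_97 replicate 3 was higher than every other library. The log2 fold change was -0.08 (SE 0.14, adjusted p 0.731), and -0.22 with an adjusted p of 0.0654 (range over the alternatives 0.0654 to 0.935) without that library. ASNS exons overlap the gene model ENSG00000284707 on the same strand. CHAC1, which degrades glutathione, was the lowest of the class at 4.92 ± 0.829 CPM in SCR1 (SD, n = 3) and 4.41 ± 1.69 CPM in KO (SD, n = 6), and sgRNA_97 replicate 3 was again the highest at 7.58 CPM. Its log2 fold change was -0.14 (SE 0.24, adjusted p 0.727), and -0.37 with an adjusted p of 0.210 (range over the alternatives 0.210 to 0.991) without that library. The C/EBP factors CEBPB and CEBPG, which pair with ATF4, had log2 fold changes of -0.19 (SE 0.13, adjusted p 0.335) and -0.06 (SE 0.05, adjusted p 0.450).

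**Figure D3:**
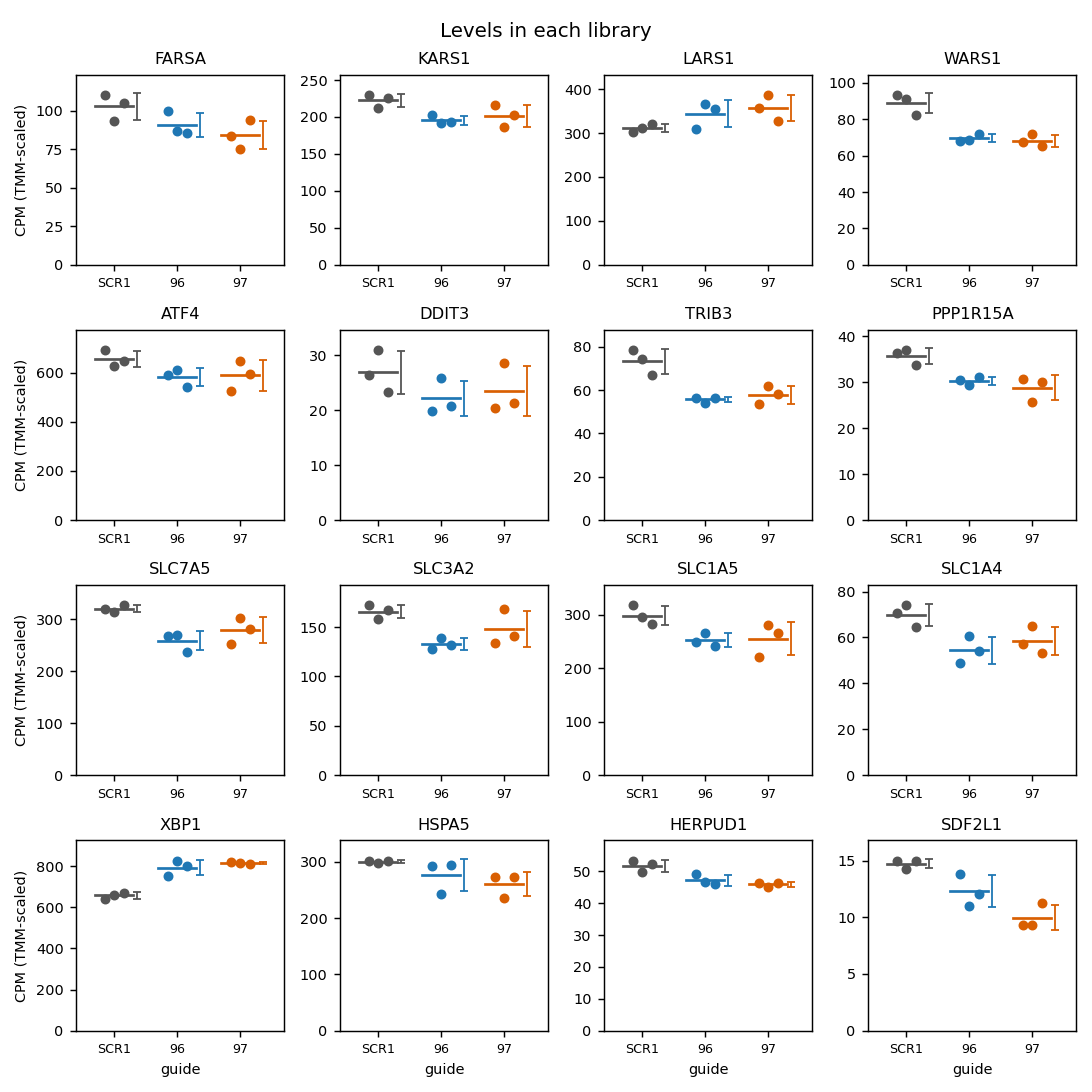
Each panel gives 1 gene, with CPM on the y axis from 0 and the guides on the x axis (96 and 97 for sgRNA_96 and sgRNA_97); points are libraries, horizontal lines group means and the bars beside them the SD (n = 3). WARS1, TRIB3, PPP1R15A, SLC7A5 and XBP1 show no overlap between SCR1 and either guide, while the points of DDIT3, LARS1 and FARSA overlap.

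Of the 7 amino acid transporters 4 fell, where 10.6% of all genes were called lower, with a median log2 fold change of -0.23 and 6 values below 0. With sgRNA_97 alone 0 of the 7 passed in edgeR, where 15.1% of all genes did. DESeq2 called 3 of the 7 with sgRNA_97 (SLC7A5, SLC1A5 and SLC1A4), where it called 2383 of 14436 genes. In edgeR 5 of the 7 had an unadjusted p under 0.05, a share that was not counted over all genes. Without SCR1 replicate 1 the count in KO was 1. SLC7A5 (LAT1) and SLC3A2 (CD98 heavy chain) form the exchanger that brings leucine and other large neutral amino acids into the cell. SLC7A5 was at 320.4, 314 and 326 CPM in SCR1, at 269, 269 and 237 CPM with sgRNA_96 and at 252, 302 and 281 CPM with sgRNA_97. No KO library reached the SCR1 range, and the log2 fold change was -0.25 (SE 0.06, adjusted p 0.00611). It was called in all 18 alternatives, the highest adjusted p being 0.0494.

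SLC3A2 was at 172, 158 and 167 CPM in SCR1 and from 128 to 168 CPM, with a median of 136, in the KO libraries. Only sgRNA_97 replicate 3, at 168 CPM, lay within the SCR1 range. The log2 fold change was -0.24 (SE 0.07, adjusted p 0.0203), and -0.30 with an adjusted p of 0.000718 without that library. The call was lost without SCR1 replicate 1 (adjusted p 0.110) or replicate 4 (0.0729), in a range over the alternatives from 9.69e-05 to 0.124.

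SLC1A5 (ASCT2), the main importer of glutamine, was at 317, 295 and 282 CPM in SCR1 and from 221 to 280.2 CPM, with a median of 257, in the KO libraries. The highest KO library was just below the lowest control, with no overlap. The log2 fold change was -0.23 (SE 0.06, adjusted p 0.0149), and -0.19 with an adjusted p of 0.114 (range over the alternatives 6.66e-05 to 0.114) without SCR1 replicate 1. SLC1A4 (ASCT1), its relative for serine and alanine, was at 70.6, 73.9 and 64.4 CPM in SCR1 and from 48.9 to 65.2 CPM, with a median of 55.6, in the KO libraries. Only sgRNA_97 replicate 3 reached the lowest SCR1 value. The log2 fold change was -0.30 (SE 0.07, adjusted p 0.0100), with an adjusted p of 0.0535 (range over the alternatives 2.22e-05 to 0.0740) without SCR1 replicate 1.

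SLC7A1 (CAT1), for arginine and lysine, was at 219 ± 5.26 CPM in SCR1 (SD, n = 3) and 202 ± 11.7 CPM in KO (SD, n = 6). Its log2 fold change was -0.12 (SE 0.05, adjusted p 0.101), and the adjusted p was 0.0206 (range over the alternatives 0.0206 to 0.307) without sgRNA_97 replicate 3. SLC38A2 (SNAT2), for small neutral amino acids, was the only transporter of the class with a value above 0, at 0.10 (SE 0.05, adjusted p 0.162), and that sign was lost with the GC trend offset. Without sgRNA_96 replicate 1 it was 0.13 with an adjusted p of 0.0261 (range over the alternatives 0.0261 to 0.975). SLC7A11 (xCT), the cystine importer, was hardly expressed, at 3.97 ± 1.08 CPM in SCR1 (SD, n = 3) and 3.62 ± 1.04 CPM in KO (SD, n = 6), and its log2 fold change was -0.12 (SE 0.23, adjusted p 0.756).

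Of the 8 ER genes 2 fell and 1 rose, a called share of 37.5% against 20.7% of all genes, with a median of -0.15. The count of calls was 6 without sgRNA_96 replicate 1, where 3516 of 14751 genes were called. It was 1 without SCR1 replicate 1 or 4, where 1503 of 14731 and 1813 of 14732 genes were. XBP1 (ENSG00000100219.17, chr22:28794555-28800597, minus strand) rose, at 640.1, 663 and 672 CPM in SCR1 replicates 1, 3 and 4, 753, 828 and 801 CPM with sgRNA_96 and 820.5, 818 and 814 CPM with sgRNA_97. The groups did not overlap, and the log2 fold change was 0.29 (SE 0.04, adjusted p 0.000101). It stayed between 0.25 and 0.31 in the 18 alternatives, with a highest adjusted p of 0.00198. Of the other 7 ER genes 2 fell and 5 were not past the threshold. All of the 7 but HSP90B1 (0.04) had log2 fold changes below 0.

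HSPA5 (BiP), the main chaperone of the ER lumen, was at 302, 298 and 302 CPM in SCR1 and from 236 to 294 CPM, with a median of 273, in the KO libraries. The SCR1 values were close together, all KO values lay below them, and the log2 fold change was -0.16 (SE 0.06, adjusted p 0.0757). HSPA5 passed the threshold in 7 of the 18 alternatives, which included DESeq2 (adjusted p 0.04997) and the fits without sgRNA_96 replicate 1 (0.0281) or replicate 4 (0.0401), over a range from 0.00862 to 0.207. HSP90B1 (GRP94), the ER form of HSP90, was at 535 ± 21.7 CPM in SCR1 (SD, n = 3) and 548 ± 28.6 CPM in KO (SD, n = 6), and its log2 fold change was 0.04 (SE 0.05, adjusted p 0.645), a value whose sign depended on the setting.

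SDF2L1, a cofactor of BiP, was at 15, 14.25 and 14.98 CPM in SCR1, at 13.81, 11.04 and 12.1 CPM with sgRNA_96 and at 9.332, 9.317 and 11.28 CPM with sgRNA_97. All KO values were below SCR1, and the log2 fold change of -0.41 (SE 0.11, adjusted p 0.0181) was the largest fall among the members. It was not called without SCR1 replicate 1 or replicate 4 (adjusted p 0.0693 to 0.0804). HERPUD1, which helps to clear misfolded proteins from the ER, was at 53.4, 49.7 and 52.2 CPM in SCR1 and from 45.1 to 49.2 CPM, with a median of 46.3, in the KO libraries. The groups did not overlap, and the log2 fold change was -0.15 (SE 0.05, adjusted p 0.0400). The call was lost without any 1 of 7 libraries (all but sgRNA_96 replicate 1 and SCR1 replicate 3, adjusted p 0.0542 to 0.177) and in 4 other settings.

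CALR, a calcium-binding lectin chaperone, PDIA4, a disulfide isomerase, and DNAJB9 (ERdj4), a BiP cofactor, had log2 fold changes of -0.16 (SE 0.06, adjusted p 0.0895), -0.15 (SE 0.06, adjusted p 0.102) and -0.25 (SE 0.13, adjusted p 0.179). CALR passed the threshold without sgRNA_96 replicate 1 (adjusted p 0.0222) or SCR1 replicate 3 (0.0435), over a range from 0.0116 to 0.339, and PDIA4 without sgRNA_96 replicate 1, at 0.0435 (range over the alternatives 0.0357 to 0.401).

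Splicing of XBP1 reports the activity of IRE1, so the spliced form was counted apart. The annotated transcript XBP1-202 lacks 26 bases that the unspliced transcript retains, at chr22:28796128-28796153 on the minus strand (hg38). They are shown in capitals with 20 bases of exon on each side, since this stretch defines the measurement.
XBP1 intron: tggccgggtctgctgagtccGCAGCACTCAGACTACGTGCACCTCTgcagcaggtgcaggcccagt
XBP1-202 took 2.23, 3.15 and 1.94% of the XBP1 counts in SCR1 replicates 1, 3 and 4. It took 1.65, 1.77 and 2.22% with sgRNA_96, and 1.47, 0 and 0.540% with sgRNA_97. The groups overlapped in sgRNA_96 replicate 4. The mean was 1.28 ± 0.835% (SD, n = 6) in KO and 2.44 ± 0.634% (SD, n = 3) in SCR1, and an exact two-sided permutation test of this difference of -1.16 percentage points gave p = 0.0714, where the smallest p the 84 arrangements allow is 0.0119. The unspliced and spliced forms differ over few bases and Salmon divides shared reads by likelihood, so the 0 in sgRNA_97 replicate 3, of 15544 counts, is an estimate listed at 0 and carries no counting limit. Without that library the difference was -0.91 (exact permutation p = 0.0714).

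**Figure D4:**
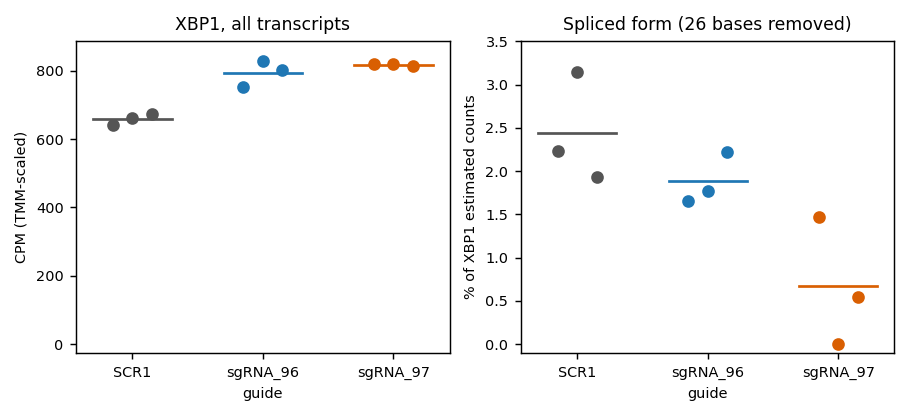
Left, XBP1 in CPM; right, XBP1-202 (26 bases removed) as a percentage of the XBP1 estimated counts, each by guide, with points for libraries and lines for group means. All KO points on the left lie above the SCR1 points. On the right sgRNA_97 reaches from 0 to 1.47% and sgRNA_96 from 1.65 to 2.22%, which overlaps SCR1 at 1.94 to 3.15%.

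Levels of different genes were compared per length, in TPM, in which counts are divided by transcript length. In SCR1, ATF4 had the highest level of the members with 682 ± 26.6 TPM (SD, n = 3), followed by XBP1 with 508 ± 13.7, CALR with 361 ± 18.8 and HSP90B1 with 263 ± 5.60 TPM. Each of these stood above the next with no overlap between libraries. QARS1 was the highest synthetase, at 206 ± 7.33 TPM, and FARSB the lowest, at 14.4 ± 0.996 TPM. SLC1A5 led the transporters with 176 ± 13.7 TPM and overlapped with KARS1, next in the order at 163 ± 2.03 TPM. In the middle of the order neighbours overlapped, as YARS1, HSPA5, SLC3A2, MARS1 and GARS1 did between 125 and 143 TPM. SLC7A11 closed it at 0.538 ± 0.154 TPM.

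Each guide was also set against SCR1 alone. Both comparisons use the same 3 SCR1 libraries, so their values are given side by side and no agreement is read from them. With sgRNA_96, 7 members were called, 6 lower and 1 higher, where 11.2% of all genes were (5.41% lower and 5.78% higher). They were KARS1, WARS1, TRIB3, SLC7A5, SLC3A2 and SLC1A4 among those that fell, and XBP1. With sgRNA_97, 7 members were called, 6 lower and 1 higher, where 15.1% of all genes were (7.76% lower and 7.35% higher). These were FARSA, WARS1, TRIB3, PPP1R15A, SDF2L1 and CALR, and again XBP1. Without SCR1 replicate 1, 4 of the 7 were left with each guide, WARS1, TRIB3 and XBP1 in both, SLC7A5 with sgRNA_96 and SDF2L1 with sgRNA_97.

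WARS1 had log2 fold changes of -0.36 (SE 0.06, adjusted p 0.00198) with sgRNA_96 and -0.38 (SE 0.06, adjusted p 0.00103) with sgRNA_97. TRIB3 had -0.40 (SE 0.07, adjusted p 0.00203) and -0.34 (SE 0.07, adjusted p 0.00513), and XBP1 0.27 (SE 0.05, adjusted p 0.00167) and 0.31 (SE 0.05, adjusted p 0.000495). SLC7A5 had -0.31 (SE 0.07, adjusted p 0.00689) and -0.20 (SE 0.07, adjusted p 0.0511). Without sgRNA_97 replicate 3, 1056 of 14688 genes were called with sgRNA_97. In that fit SLC7A5 had an adjusted p of 0.0351, SLC3A2 0.0219, SLC1A5 0.0380 and SLC1A4 0.0426. So 4 transporters passed the threshold, while PPP1R15A (0.105) and FARSA (0.165) no longer did. Over the alternatives the adjusted p of these 6 genes with sgRNA_97 ran from 0.000172 to 0.412. SDF2L1 had -0.27 (SE 0.11, adjusted p 0.152) with sgRNA_96 and -0.57 (SE 0.12, adjusted p 0.00534) with sgRNA_97. CALR with sgRNA_97 stood just under the threshold, at -0.21 (SE 0.07, adjusted p 0.0497).

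The difference between the guides was tested directly, with sgRNA_97 against sgRNA_96. None of the 44 members passed in edgeR, where 0.0208% of all genes did. Of the members 5 had an unadjusted p under 0.05, a share that was not counted over all genes. DESeq2 called 0 and the test on TPM 0, and the fit with no filter called 1, ASNS. ASNS was 0.31 (SE 0.14) higher with sgRNA_97 on the log2 scale, a value to which sgRNA_97 replicate 3 contributes, and no member was called without that library. The other unadjusted values under 0.05 were for CARS1, GARS1 and IARS1, higher with sgRNA_97, and SDF2L1, lower with it. The standard error of the difference was 0.06 for WARS1 and 0.30 for CHAC1 on the log2 scale, which limits what 3 libraries a guide can show.

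**Figure D5:**
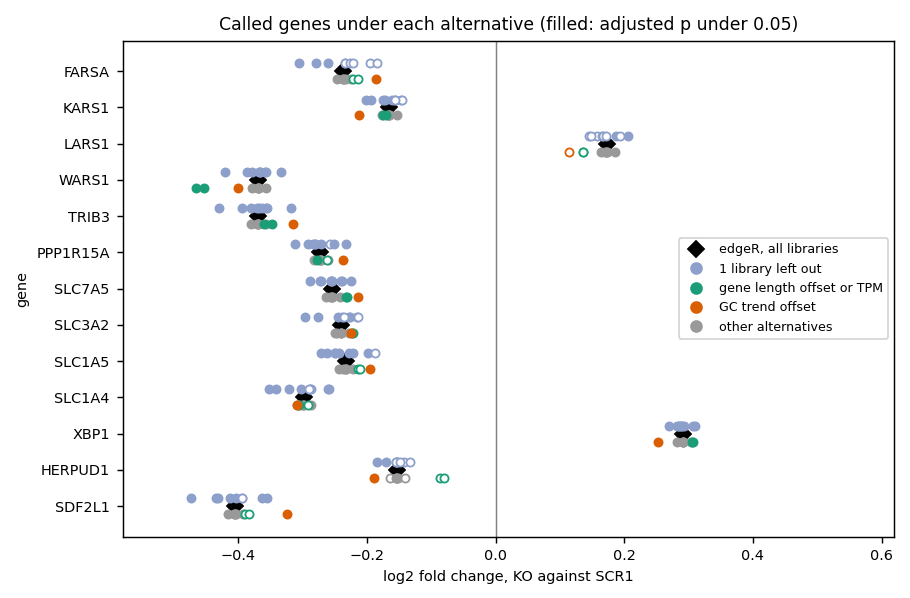
The x axis gives the log2 fold change of KO against SCR1 for the 13 called genes (y axis) in each of the 18 alternative settings and in the edgeR fit on all libraries (black); blue points leave out 1 library, green points use the gene length offset or TPM, orange points the GC trend offset and grey points the others, and filled points had an adjusted p under 0.05. No gene changes sign, and WARS1, TRIB3, SLC7A5 and XBP1 are filled throughout.

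Related genes that are not among the 44 were read from lists of the same pathways. Of 17 mitochondrial synthetase genes 3 fell (LARS2, MARS2 and TARS2), none rose, and 16 values were below 0, with a median log2 fold change of -0.09. The called share of 17.6% was below the 20.7% of all genes, of which 49.5% had values below 0. LARS2, for leucine in the mitochondrion, went from 72.0 ± 4.41 to 59.5 ± 5.59 CPM, a log2 fold change of -0.28 (SE 0.07, adjusted p 0.0113). Of 5 other genes of the cytosolic synthetase machinery 2 fell, where 10.6% of all genes were called lower. These were AIMP2 (-0.26) and EEF1E1 (-0.20), scaffold proteins of the multi-synthetase complex. The call for AIMP2 was lost without SCR1 replicate 1 or 4, that for EEF1E1 without any 1 of 7 libraries (adjusted p up to 0.256), that for LARS2 and for MARS2 without SCR1 replicate 1 and for MARS2 also without replicate 4, and that for TARS2 without any SCR1 replicate (adjusted p 0.0558 to 0.0957 over these 4 genes).

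Of 16 other ATF4 targets tested, 6 fell and none rose, with a median of -0.19, where 10.6% of all genes were called lower. With sgRNA_96 alone 6 of the 16 were called, where 11.2% of all genes were, and with sgRNA_97 alone 3, where 15.1% were. ATF3, a stress-induced factor, went from 11.8 ± 1.58 to 8.405 ± 0.914 CPM (-0.49, adjusted p 0.00703). SHMT2, which turns serine into glycine in mitochondria, had -0.25 (adjusted p 0.00333) and STC2, a secreted glycoprotein, -0.34 (adjusted p 0.0121). In all 3 the groups did not overlap, and SHMT2 was called in all 18 alternatives. ATF3 was not called without SCR1 replicate 1, the adjusted p being 0.0754 (range over the alternatives 0.00124 to 0.244), nor STC2 without SCR1 replicate 4, at 0.0623 (range over the alternatives 0.000254 to 0.0623).

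Upstream, 15 genes of the eIF2 kinases and regulators were tested and 2 were called, a share of 13.3% against 20.7% of all genes. EIF2AK2 (PKR), the kinase that senses double-stranded RNA, rose by 0.16 and EIF2B3, a subunit of the eIF2 exchange factor, had -0.22 on the log2 scale (adjusted p 0.0191 and 0.0325). Both calls were lost without SCR1 replicate 1 or 4, and EIF2B3 also without 4 other libraries (adjusted p 0.0571 to 0.150). The GC trend offset ended the call for EIF2AK2 as well. Over the alternatives EIF2AK2 ran from 0.07 to 0.18 on the log2 scale, with an adjusted p up to 0.405. Of 8 other amino acid transporters, SLC7A6 rose (0.17, adjusted p 0.0102) and SLC38A5 fell (-0.21, adjusted p 0.0420). This called share of 25.0% was close to the 20.7% of all genes. SLC7A6 was not called without SCR1 replicate 4, the adjusted p being 0.0571 (range over the alternatives 0.00132 to 0.116), and SLC38A5 was not called without any 1 of 6 libraries (adjusted p up to 0.265).

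For the unfolded protein response, 8 genes were tested from a list of its sensors with related proteases and transcription factors. Of these 1 (12.5%, against 20.7% of all genes) was called, MBTPS1 (0.14, adjusted p 0.0168). MBTPS1 is a protease that activates ATF6 and is no sensor itself. The sensor genes ERN1 (IRE1), ATF6 and EIF2AK3 were not called. The MBTPS1 call was lost without any 1 SCR1 replicate (0.0583 to 0.0791). Of 16 other folding genes 5 fell and 2 rose, where 10.6% and 10.1% of all genes did. P4HB, protein disulfide isomerase, went from 294 ± 12.5 to 248 ± 10.9 CPM (-0.25, adjusted p 0.00118). The 2 that rose were the reductase DNAJC10 (0.43, adjusted p 4.22e-05) and the oxidase ERO1B (0.48, adjusted p 0.000292). Of 14 genes for degradation of ER proteins 12 had values above 0 and 21.4% were called, close to the share of all genes. EDEM1 (0.29, adjusted p 0.00244) and UBE2G2 (0.16, adjusted p 0.0145) rose while VCP fell (-0.17, adjusted p 0.0251). DNAJC10, P4HB and EDEM1 were called in all 18 alternatives and ERO1B in 17 of them. UBE2G2 was not called without SCR1 replicate 1, the adjusted p being 0.101 (range over the alternatives 0.00164 to 0.101), nor VCP without any 1 of 4 libraries (sgRNA_96 replicate 3, sgRNA_97 replicate 3, SCR1 replicates 1 and 4; 0.0519 to 0.131). On TPM the calls for LARS2, MARS2, TARS2, EEF1E1, EIF2AK2, EIF2B3, ATF3, SLC7A6, SLC38A5, MBTPS1, ERO1B and VCP were lost. With the gene length offset those for MARS2, TARS2, EEF1E1, EIF2AK2, EIF2B3, ATF3, SLC7A6, SLC38A5 and VCP were lost too.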

How the data were processed

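RNA of 9 HAL-01 libraries, made with a TruSeq mRNA kit, was sequenced. The authors processed the reads with nf-core/rnaseq, using STAR for alignment to hg38 and Salmon 1.10.1 for quantification, per the labels and methods. They deposited an estimated count per transcript, without normalization, and TPM, scaled for transcript length; the authors' annotation release is not given in the sources used here. Identifiers were looked up in GENCODE release 44, where each of the 252835 had its gene. Not whole were 87.6% of the counts above 0.

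Each gene's estimated counts were added up and rounded. After filterByExpr (minimum count 10) and TMM scaling, 14436 genes entered edgeR 4.0.16's quasi-likelihood test (R 4.3.3) with Benjamini-Hochberg adjustment at 0.05, 2 groups for KO and 3 for the guides. Alternatives were DESeq2 1.42.0 (the study's tool), limma 3.58.1 on log2(TPM + 1), a replicate block, 2 other scalings, 2 other filters, a gene length offset, each library left out and, added after seeing the data, a GC trend offset. The KO fit was tested on simulated data with planted changes larger than that of any member. Recovery of changes of the sizes reported here was not tested.

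The members and lists were chosen with earlier results of these data known. All members are named, with library values for ATF4, DDIT3, XBP1, HSPA5 and the called members (at most 6 a class). At most 3 called genes were named from each other list, by lowest p. ASNS was given in full after its values were seen. Libraries of 1 group differed beyond sampling noise (chi-square over its degrees of freedom 4.31 to 8.59).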

Additional observations from a re-analysis of the deposited data

Results flagged for a closer look

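Each KO group of 6 libraries was screened for a library far from the others, by the gap of its highest or lowest value to the nearest library as a share of the range (limit 0.625). Of 45 values screened, chance would mark about 2.25, and 8 were marked. In sgRNA_97 replicate 3, ASNS at 96.7 CPM, CHAC1 at 7.58 CPM, SLC3A2 at 168 CPM and SLC7A1 at 225 CPM were far above the other KO libraries, and PPP1R15A at 25.8 CPM was far below them. In sgRNA_96 replicate 1, XBP1 at 753 CPM and DNAJB9 at 7.88 CPM were far below and HERPUD1 at 49.2 CPM far above. What sets sgRNA_97 replicate 3 apart was not tested.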

How the results depend on the processing

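Against 13 members called in KO, the gene length offset gave 7, limma on log2(TPM + 1) gave 5 and the GC trend offset gave 20. DESeq2 gave 15, no filter 18, at least 10 counts in every library 15, RLE scaling 13 and upper quartile scaling 12, and the counts with 1 library left out ran from 4 (without SCR1 replicate 1) to 17 (without sgRNA_96 replicate 1). Over all genes the length offset, TPM and the fit without SCR1 replicate 1 gave 1526, 1240 and 1503 calls against 2984, and the GC trend offset 3754, of which 36.5% were higher against 48.9%. For sgRNA_96, 7 became 13 with no filter, 4 with the length offset, 2 on TPM and 16 with the GC trend, and 4 to 7 with a library left out. For sgRNA_97, 7 became 13 in DESeq2, 15 with no filter, 12 with at least 10 counts in every library, 4 with the length offset, 3 on TPM and 14 with the GC trend, and 4 to 9 with a library left out. For sgRNA_97 against sgRNA_96, 0 became 1 with no filter and stayed 0 with any library left out. The XBP1 spliced share differed by -1.20 percentage points of TPM and by -1.42 to -0.81 with a library left out (exact permutation p from 0.0536 to 0.179). The causes of these shifts were not tested, and a fit with a library left out also has fewer samples.

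The replicate block gave 17 calls in KO, 8 with sgRNA_96, 10 with sgRNA_97 and 0 between the guides. Same-numbered libraries deviated together with correlations of -0.0656 to 0.0552, and nothing in the labels ties a number to a shared culture, so the numbers were not taken to pair the samples. With the block DDIT3, SESN2, HSPA5 and CALR passed the threshold in KO in addition to the 13.

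Of the KO values of all members over the 18 alternatives, 695 kept direction and side of the threshold, 48 lost and 32 gained the call, and 17 changed sign, all in members not called. CARS1 was 0.0063 with upper quartile scaling and -0.0473 to 0.0283 with a library left out, QARS1 0.000273 and -0.0422 to 0.0147, NARS1 0.0011 with that scaling, 0.021 with the length offset and 0.0228 on TPM, MARS1 0.0155 and 0.0146 in the last pair of settings. With the GC trend IARS1 was -0.0053, SLC38A2 -0.0019 and HSP90B1 -0.0233. With a library left out SLC7A11 ran from -0.319 to 0.0421 and HSP90B1 from -0.000405 to 0.0585. CHAC1 rested on as few as 39 counts in a library, and members at such depth could show only large changes.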
